A study of Homo sapiens with 9 samples.

Results

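The 49 genes described here are human genes of the G1/S transition and of DNA replication. They were chosen by name, 49 of the 58425 genes to which the transcripts of the libraries could be assigned, and they are the G1/S cyclins with their kinases and phosphatase (6 genes), E2F transcription factors (5), origin licensing (10), helicase activation (6), replicative polymerases and primase (6), clamp, clamp loader and Okazaki fragment enzymes (7), nucleotide supply (4) and checkpoint, chromatin and ubiquitin factors of S phase (5). The rule used gene names only, all 49 were detected and all 49 passed the low-count filter that left 18444 genes to test. The list was drawn up with earlier results of these data known. Its shares set beside those of all genes are therefore descriptive and no independent test. The 9 samples were nuclear RNA of U2OS, a human osteosarcoma cell line. Cells received siRNA at 15 nM for 48 hours, and the siRNA was a control (siControl), targeted dyskerin (siDyskerin) or targeted GAR1 (siGAR1), in 3 biological replicates each. Dyskerin is the pseudouridine synthase of the H/ACA ribonucleoprotein and GAR1 is a core protein of the same complex. All groups were of a single line, were transfected with the same reagent and were sampled at a single time, the control siRNA came from another supplier (Qiagen) than those against the H/ACA proteins (Dharmacon), and only the nuclear fraction was sequenced, after ribosomal RNA depletion.

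A cell that commits to division builds cyclin D with CDK4 and then cyclin E with CDK2, which phosphorylate the retinoblastoma protein and free the E2F factors to switch on genes for the next step, cyclin E, E2F1 itself and most of the replication machinery among them. Origins are licensed in G1 by ORC, CDC6 and CDT1, which load the MCM2-7 helicase. In S phase CDC45 and the GINS complex activate that helicase, and the polymerases, the PCNA clamp and the ribonucleotide reductase that supplies deoxynucleotides carry out synthesis. Because these RNAs rise and fall with the cell cycle, a bulk level depends on how many cells are in each phase. In bulk RNA, fewer cells in a phase and less RNA per cell cannot be told apart.

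The libraries held 48838756 to 90698675 summed reads. The silenced genes followed their labels: DKC1, which encodes dyskerin, had 20777 to 22716 normalized counts (counts scaled to the mean library size) in siControl and 3075 to 3124 in siDyskerin, and GAR1 had 594 to 664 in siControl and 83.9 to 115 in siGAR1. Of 6 markers of the osteosarcoma line, VIM, SPARC, RUNX2, COL1A1 and CDH2 were present in every library and COL1A2 had at most 5.70 normalized counts. Of 6 epithelial markers, GRHL2 and KRT19 had at most 8.63 and KRT8 was abundant (34730 to 39757 in siControl). The values of the others, EPCAM, CDH1 and ESRP1, are not given here. KRT8 was higher in siDyskerin, with a log2 fold change of 0.48 and an adjusted p of 0.00018 from edgeR's quasi-likelihood test; its part in the results below was not tested.

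Promoters of 42 of the 49 genes were found in the RefSeq promoter table (GRCh38.p14), each window running from 250 bases before to 50 bases after a start site. For a gene with several start sites, the window nearest to the start of its transcript with most reads was taken. Each window was searched on both strands for 3 cores of the E2F binding site, each 7 bases long, which can overlap each other on opposite strands. At least 1 core was present in 32 of the 42 windows (76.2%), against 3872 of all 35116 windows in the table (11.0%). Over every listed start site of these genes the share was 35 of 55 windows (63.6%). By core, TTCCCGC was in 18 of the 42 (42.9%, against 6.55% of all windows). The core TTGGCGC was in 15 (35.7%, against 3.04%). The core TTCGCGC was in 8 (19.0%, against 2.24%). The CHR element TTTGAA, a letter run known from promoters of later cell cycle genes, was in 2 of the 42 (4.76%), against 15.2% of all windows. The windows of 5 genes on which the results turn are printed 5′ to 3′ on the strand of the gene, with E2F cores of either strand in capitals. CCNE1 lies at chr19:29811741-29812040 (plus strand) and shows none of the 3 letter runs in this window, E2F1 at chr20:33686336-33686635 (minus), E2F2 at chr1:23531184-23531483 (minus), GINS1 at chr20:25407423-25407722 (plus) and MCM7 at chr7:100101348-100101647 (minus).
CCNE1: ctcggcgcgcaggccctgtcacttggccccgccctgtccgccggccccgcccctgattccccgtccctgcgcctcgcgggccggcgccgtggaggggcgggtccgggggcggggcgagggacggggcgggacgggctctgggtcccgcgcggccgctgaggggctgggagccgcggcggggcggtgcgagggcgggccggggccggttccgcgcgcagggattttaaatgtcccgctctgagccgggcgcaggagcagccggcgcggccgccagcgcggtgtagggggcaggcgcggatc
E2F1: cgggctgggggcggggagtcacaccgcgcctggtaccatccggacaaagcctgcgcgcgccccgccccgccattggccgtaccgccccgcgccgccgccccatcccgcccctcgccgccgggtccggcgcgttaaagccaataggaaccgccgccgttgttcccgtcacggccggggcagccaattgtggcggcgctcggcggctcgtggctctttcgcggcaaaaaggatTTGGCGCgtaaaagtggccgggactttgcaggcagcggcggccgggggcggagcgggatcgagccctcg
E2F2: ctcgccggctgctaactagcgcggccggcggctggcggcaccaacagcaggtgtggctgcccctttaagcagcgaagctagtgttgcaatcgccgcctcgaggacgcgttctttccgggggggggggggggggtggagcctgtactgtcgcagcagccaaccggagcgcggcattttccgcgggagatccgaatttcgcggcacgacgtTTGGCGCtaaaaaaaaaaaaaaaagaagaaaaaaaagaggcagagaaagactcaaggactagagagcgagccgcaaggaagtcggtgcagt
GINS1: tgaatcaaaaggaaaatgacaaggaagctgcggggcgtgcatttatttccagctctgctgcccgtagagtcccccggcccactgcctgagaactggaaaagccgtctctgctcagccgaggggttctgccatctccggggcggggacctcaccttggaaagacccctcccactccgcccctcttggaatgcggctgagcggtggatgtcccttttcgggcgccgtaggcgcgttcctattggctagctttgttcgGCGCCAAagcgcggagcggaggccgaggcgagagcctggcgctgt
MCM7: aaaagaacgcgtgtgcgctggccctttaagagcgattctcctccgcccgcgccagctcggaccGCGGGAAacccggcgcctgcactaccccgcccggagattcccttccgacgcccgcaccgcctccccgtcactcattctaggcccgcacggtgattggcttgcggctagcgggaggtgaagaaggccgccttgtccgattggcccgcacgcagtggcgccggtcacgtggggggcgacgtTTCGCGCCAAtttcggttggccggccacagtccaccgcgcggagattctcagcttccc
The core of E2F1 begins 19 bases before the start site, that of E2F2 41 bases before it, and that of GINS1 at base 6 after it, counting the start site as base 1. MCM7 has 3, beginning at -187, -8 and -5, and the last pair overlap. A match is only a run of letters, and a window without one says nothing of whether the factor binds.

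After dyskerin knockdown the members that passed the test, all of them lower, were CCNE1, E2F1, E2F2, GINS1 and RRM2. After GAR1 knockdown they were CCNE1, CCNE2, E2F1 and MCM7, again lower. Between the knockdowns MCM7 and GINS1 passed. Of all 49, 33 had a log2 fold change below 0 in siDyskerin (67.3%, against 49.4% of all genes). In siGAR1 40 did (81.6%, against 48.7%), and most in either knockdown did not pass. No member was past an absolute log2 fold change of 1 together with an adjusted p under 0.01 in any comparison. Most of the replication machinery, including the PCNA clamp, the primase and thymidylate synthase TYMS, did not pass the test.

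Passing means a Benjamini-Hochberg adjusted p under 0.01 over all 18444 genes, from edgeR's quasi-likelihood test fitted to the 9 libraries. In siDyskerin against siControl, 5 of 49 members passed lower (10.2%), against 3.32% of all genes tested, and 0 passed higher, against 3.08%. At an unadjusted p under 0.05, 16 were lower and 1 higher, against 13.1% and 13% of all genes tested. DESeq2 called 8 lower and 0 higher at the same threshold of 0.01, against 6.59% and 6.18% of the genes to which it gave an adjusted p. Every DESeq2 share given below has that base. The median log2 fold change of the 49 was -0.08, and 33 were below 0, where the median of all genes was 0.003. All 3 siDyskerin libraries were below all 3 siControl libraries for 20 members (40.8%, against 15.5% of all genes) and above them for 3 (6.12%, against 16% of all genes). The members were more precisely measured than most genes, with a median standard error of 0.07 on the log2 scale against 0.12 over all genes tested. Of the 14175 protein-coding genes tested, 3.87% passed lower in siDyskerin and 2.31% in siGAR1, somewhat more than of all genes. The share of all genes past both the p and the fold threshold was 0.938%.

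In siGAR1 against siControl, edgeR passed 4 of 49 members lower (8.16%), against 1.79% of all genes, and 0 higher, against 1.63%. At an unadjusted p under 0.05, 26 were lower and 1 higher, against 12.2% and 11.8% of all genes, and DESeq2 called 13 lower and 0 higher, against 5.35% and 4.34%. The median log2 fold change was -0.16 with 40 members below 0, where the median of all genes was 0.009. The groups did not overlap for 27 members lower in siGAR1 (55.1%, against 14.1%) and for 2 higher (4.08%, against 13.6%), and 0.282% of all genes were past both thresholds. The 2 knockdowns share their control libraries, so their values are set side by side without a test of likeness. In siDyskerin against siGAR1, 1 member passed higher (2.04%, against 2.61% of all genes) and 1 lower (2.04%, against 2.78%), both shares near the background. At an unadjusted p under 0.05, 10 were higher and 3 lower, against 13.1% and 12.4% of all genes, and DESeq2 called 5 higher and 2 lower, against 6.01% and 5.21%. The median was 0.07, and the groups did not overlap for 13 members higher in siDyskerin (26.5%, against 15.1%) and for 4 lower (8.16%, against 14.6%). Past both thresholds were 0.721% of all genes.

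Leaving out single libraries changed these counts. The 5 lower members of siDyskerin became 2 without siDyskerin replicate 2, and 3 without either siDyskerin replicate 3 or siControl replicate 3. The 4 lower members of siGAR1 became 2 without siControl replicate 1, siControl replicate 3, siDyskerin replicate 2 or siDyskerin replicate 3, and 1 (CCNE1) without siControl replicate 2, siGAR1 replicate 1 or siGAR1 replicate 2. Between the knockdowns, the member higher in siDyskerin (MCM7) was lost without siGAR1 replicate 1, and MCM6 joined it without siControl replicate 1 or siGAR1 replicate 3. The lower member (GINS1) was lost without siDyskerin replicate 1 or 2 or any of the 3 siGAR1 replicates. CCNE1 passed in both knockdowns, and GINS1 in siDyskerin, under each of the 17 alternative settings run.

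**Figure D1:**
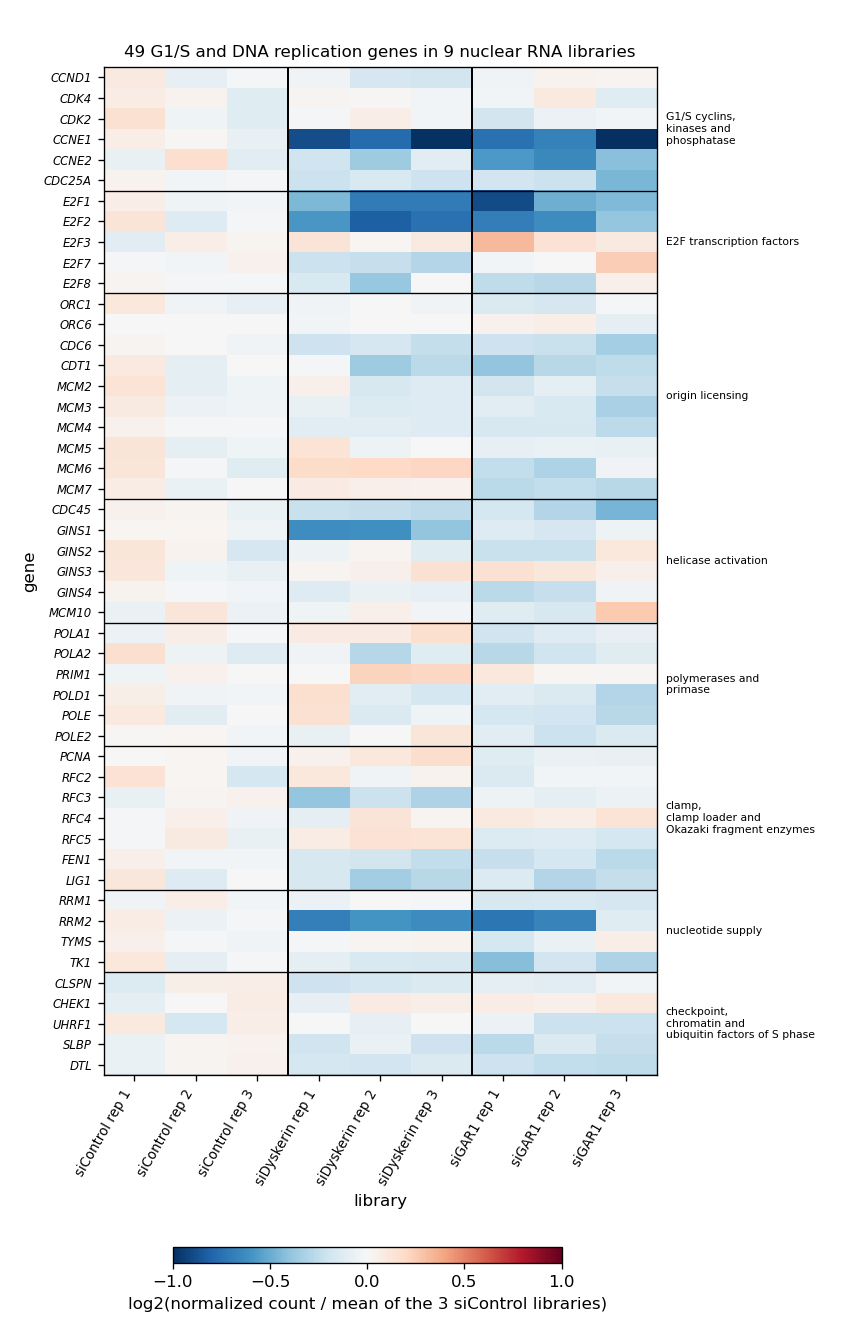
Each row is a member, grouped by role, and each column a library; colour is the log2 ratio of the normalized count to the mean of the 3 siControl libraries, saturating at -1 and 1. The rows of CCNE1, E2F1, E2F2, GINS1 and RRM2 are the darkest in the siDyskerin columns, RRM2 is paler in siGAR1 replicate 3, and most other rows stay near 0.

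Across libraries, the median log2 ratio of the 49 members to the siControl mean was 0.05, -0.01 and -0.03 in the siControl libraries, -0.05, -0.11 and -0.11 in siDyskerin, and -0.16, -0.16 and -0.12 in siGAR1. The members together took 0.644 to 0.675% of gene-assigned reads in siControl, 0.605 to 0.619% in siDyskerin and 0.567 to 0.595% in siGAR1. The 3 groups did not overlap in this share. Abundant members weigh most in it, and RRM2 alone had means of 35135.5 normalized counts in siControl, 22580 in siDyskerin and 25251 in siGAR1.

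Levels were compared between members only per length, in siControl, as the TPM (an abundance scaled by transcript length and library size) of each gene's transcript with most reads. TYMS (78.2 ± 1.86, SD, n = 3) and PCNA (76.7 ± 1.64) were at the top and differed by less than their SD. MCM7 (36.7 ± 1.68), RRM2 (33.0 ± 1.76), CDK4 (31.9 ± 1.95) and TK1 (30.9 ± 1.81) followed. MCM7 lay above RRM2 by more than either SD, while RRM2, CDK4 and TK1 each differed from the next by less than 1 SD. CCNE1 had 15.1 ± 0.69 and CCNE2 3.28 ± 0.32. The E2F factors were low, with E2F7 at 5.40 ± 0.20, E2F1 at 3.57 ± 0.14, E2F3 at 3.40 ± 0.19, E2F8 at 1.26 ± 0.02 and E2F2 at 1.06 ± 0.08, the lowest of the 49.

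Cyclin E1 was the member with the largest drop in both knockdowns. CCNE1 (ENSG00000105173.14; GRCh38 chromosome 19, 29811991 to 29824312) encodes the cyclin that activates CDK2 at the G1/S boundary. It had 8326, 8010 and 7546 normalized counts in the siControl libraries, 4312, 4678 and 4019 in siDyskerin, and 4750, 4978 and 3903 in siGAR1. No knockdown library came near the lowest control, and the 2 knockdown groups overlapped. The level was 45.5% lower in siDyskerin (log2 fold change -0.88, standard error 0.09, 95% interval -1.07 to -0.68, edgeR adjusted p = 2.6e-05) and 42.9% lower in siGAR1 (-0.81, standard error 0.09, adjusted p = 0.0001). Between the knockdowns the difference was -0.07 (95% interval -0.26 to 0.13).

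Its paralog CCNE2 (ENSG00000175305.18), cyclin E2, had 1417, 1679 and 1384 normalized counts in siControl, 1303, 1168 and 1379 in siDyskerin and 1005, 956 and 1116 in siGAR1. The siGAR1 libraries were the lowest, and the highest siDyskerin library lay just under the lowest control. It fell in siGAR1, with a log2 fold change of -0.54 (standard error 0.10, edgeR adjusted p = 0.0039). That call was kept in 13 of 17 alternative settings. In siDyskerin it was at -0.22 (edgeR adjusted p = 0.17). The difference between the knockdowns was 0.32, with a 95% interval of 0.11 to 0.54 and an edgeR adjusted p of 0.048, which misses 0.01. CDC25A, the phosphatase that removes inhibitory phosphates from CDK2, was at -0.19 in siDyskerin (adjusted p = 0.11) and -0.28 in siGAR1 (adjusted p = 0.029). The D-type cyclin CCND1 had normalized counts of 7202, 6393 and 6673 in siControl, 6607, 6024 and 5954 in siDyskerin and 6586, 6936 and 6876 in siGAR1, and the groups overlapped. CDK4, the kinase of cyclin D, had log2 fold changes of 0.00 and -0.01, with 95% intervals of -0.14 to 0.15 and -0.16 to 0.13, and CDK2, the kinase of cyclin E, 0.01 and -0.09. CDK2 had normalized counts of 8816, 7722 and 7315 in siControl, 7864, 8316 and 7794 in siDyskerin and 6986, 7618 and 7803 in siGAR1, with siControl replicate 1 the highest of the 9 and the rest overlapping.

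**Figure D2:**
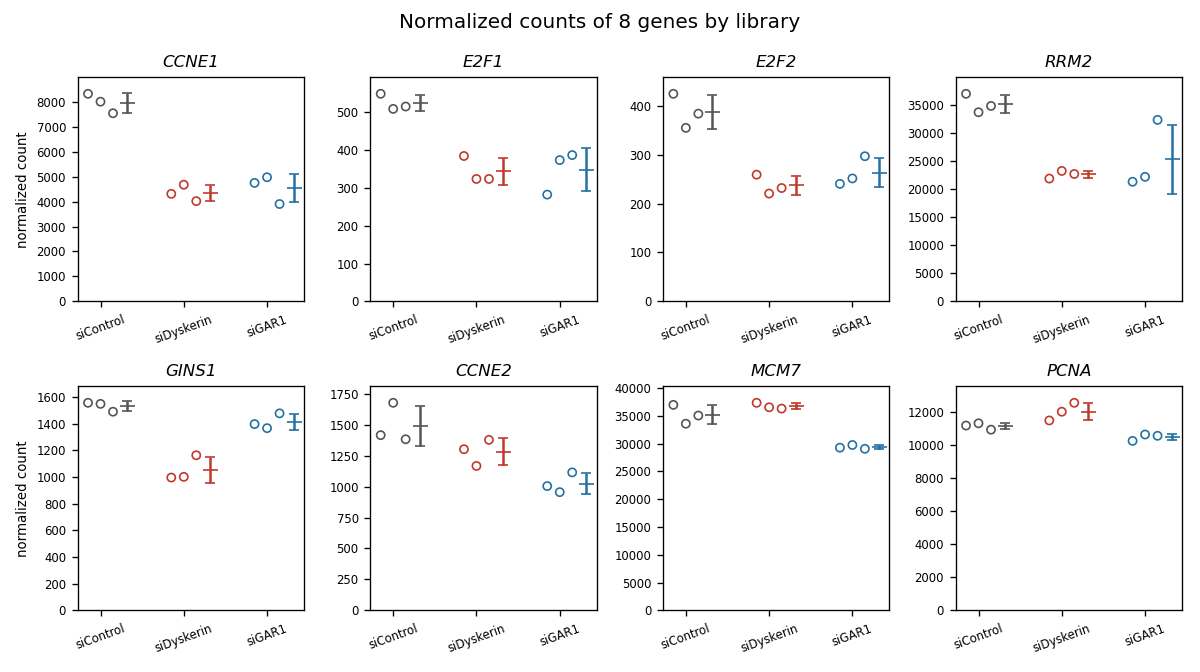
Normalized counts (y axis, from 0) of 8 members in the 3 libraries of each group (open circles), with the mean and SD beside them. CCNE1, E2F1 and E2F2 lie below control in all 6 knockdown libraries, GINS1 is lowest in siDyskerin, MCM7 is lowest in siGAR1, and the third siGAR1 circle of RRM2 (32305) stands above the other 2.

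Among the E2F factors, E2F1 passed lower in both knockdowns and E2F2 in siDyskerin, and E2F3, E2F7 and E2F8 did not pass in either. E2F1 (ENSG00000101412.13; GRCh38 chromosome 20, 33675477 to 33686385), the activator best known for driving S phase entry, had 549, 509 and 516 normalized counts in siControl, 385, 324 and 324 in siDyskerin and 282, 374 and 387 in siGAR1. All knockdown libraries were below all controls. Its log2 fold change was -0.61 in siDyskerin (standard error 0.13, edgeR adjusted p = 0.0056) and -0.60 in siGAR1 (standard error 0.13, adjusted p = 0.0098). The calls were close to the threshold: adjusted p reached 0.029 and 0.041 over the alternatives. They were kept in 12 of 17 alternative settings in siDyskerin and in 7 of 17 in siGAR1.

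E2F2 (ENSG00000007968.7; GRCh38 chromosome 1, 23506438 to 23531233), another activator, had 425, 355 and 384 normalized counts in siControl, 259, 221 and 232 in siDyskerin and 240, 252 and 297 in siGAR1. Again every knockdown library was under the lowest control. The log2 fold change was -0.71 in siDyskerin (standard error 0.12, edgeR adjusted p = 0.0016) and -0.57 in siGAR1 (95% interval -0.83 to -0.30, adjusted p = 0.012), where it missed the threshold. The call in siDyskerin was lost without siDyskerin replicate 2, at an adjusted p of 0.011. E2F3, the third activator, was at 0.08 in siDyskerin and 0.19 in siGAR1 (edgeR adjusted p = 0.16), the highest value of the group in both. Its normalized counts were 1860, 2098 and 2039 in siControl, 2189, 2027 and 2131 in siDyskerin and 2498, 2213 and 2123 in siGAR1, so only siGAR1 lay wholly above control. The atypical repressor E2F7 had 5592, 5553 and 5829 normalized counts in siControl, 4886, 4815 and 4618 in siDyskerin and 5546, 5652 and 6712 in siGAR1. It was at -0.24 in siDyskerin (adjusted p = 0.047) and -0.32 in siDyskerin against siGAR1 (adjusted p = 0.013), both short of the threshold. E2F8, its partner, was at -0.17 and -0.16.

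Origin licensing genes were near control in siDyskerin and mostly below it in siGAR1. Of the 10, 0 passed in siDyskerin by edgeR, with a median log2 fold change of -0.05. At an unadjusted p under 0.05, 1 was lower and 1 higher, against 13.1% and 13% of all genes. DESeq2 called 1 lower (CDC6), against 6.59%. In siGAR1 the median was -0.19, and 9 were below 0. At an unadjusted p under 0.05, 7 were lower (12.2% of all genes were). DESeq2 called 3 lower, against 5.35% of the genes it gave an adjusted p. MCM7 passed lower by edgeR, as 1.79% of all genes did. MCM7 (ENSG00000166508.19; GRCh38 chromosome 7, 100092233 to 100101940), a subunit of the replicative helicase, had 37002, 33608 and 35079 normalized counts in siControl, 37373, 36567 and 36329 in siDyskerin and 29289, 29772 and 29088 in siGAR1. The siGAR1 libraries were closely grouped below all others. The log2 fold change was -0.26 in siGAR1 (standard error 0.05, edgeR adjusted p = 0.0085), 0.06 in siDyskerin (95% interval -0.06 to 0.18) and 0.32 in siDyskerin against siGAR1 (standard error 0.05, adjusted p = 0.0017). The last passed in 16 of 17 alternative settings, being lost without siGAR1 replicate 1 (adjusted p = 0.011), while the drop in siGAR1 against siControl passed in 6 of 17.

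MCM6, a further helicase subunit, showed the same order of the groups. It had 1937, 1764 and 1632 normalized counts in siControl, 2024, 2036 and 2049 in siDyskerin and 1495, 1436 and 1739 in siGAR1, and siDyskerin was above all other libraries. The log2 fold change between the knockdowns was 0.39 (standard error 0.09, edgeR adjusted p = 0.011), just short of the threshold, and the values against siControl were 0.19 and -0.19. The other helicase subunits, MCM2, MCM3, MCM4 and MCM5, lay between -0.12 and 0.03 in siDyskerin and between -0.19 and -0.07 in siGAR1. CDC6, which loads the helicase with CDT1, had normalized counts of 6561, 6430 and 6287 in siControl, 5565, 5730 and 5445 in siDyskerin and 5574, 5503 and 5083 in siGAR1. All of its knockdown libraries were below all controls, at -0.20 (edgeR adjusted p = 0.044) and -0.25 (adjusted p = 0.021). CDT1 had normalized counts of 761, 665 and 712 in siControl, 708, 557 and 591 in siDyskerin and 543, 587 and 597 in siGAR1. It was at -0.20 and -0.31, the lowest of the group in both (in siGAR1, edgeR adjusted p = 0.086), and siDyskerin replicate 1 lay among the controls. The origin recognition subunit ORC6 was at -0.01 in siDyskerin and 0.01 in siGAR1, the highest of the group in siGAR1. Its normalized counts were 4668, 4670 and 4663 in siControl, 4579, 4645 and 4671 in siDyskerin and 4802, 4896 and 4355 in siGAR1, and the siControl libraries were nearly equal.

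GINS1 set the knockdowns apart in the opposite direction to MCM7. GINS1 (ENSG00000101003.12; GRCh38 chromosome 20, 25391008 to 25452700), a subunit of the complex that joins CDC45 and the MCM helicase, had 1556, 1548 and 1489 normalized counts in siControl, 995, 1001 and 1163 in siDyskerin and 1396, 1366 and 1477 in siGAR1. The siDyskerin libraries were all below the others, and the siGAR1 libraries just under the controls. The log2 fold change was -0.54 in siDyskerin (standard error 0.08, edgeR adjusted p = 0.00051), -0.12 in siGAR1 (95% interval -0.29 to 0.06) and -0.43 in siDyskerin against siGAR1 (standard error 0.08, adjusted p = 0.004). The direct difference passed in 11 of 17 alternative settings, and its adjusted p rose to 0.028 at most.

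The other GINS subunits did not pass in any of the 3 edgeR comparisons. In siDyskerin GINS2 was at -0.05, GINS3 at 0.07 and GINS4 at -0.09, and in siGAR1 they were at -0.11, 0.11 and -0.18. GINS3, the highest of the group, had normalized counts of 2407, 2157 and 2117 in siControl, 2270, 2301 and 2474 in siDyskerin and 2477, 2407 and 2305 in siGAR1, and its groups overlapped. CDC45 had 14406, 14245 and 13344 normalized counts in siControl, 11969, 11863 and 11696 in siDyskerin and 12363, 11431 and 10164 in siGAR1. Its groups did not overlap with control, yet it missed the threshold, at -0.24 (standard error 0.07, edgeR adjusted p = 0.037) and -0.31 (standard error 0.07, adjusted p = 0.016). MCM10, which helps the helicase start, was at -0.01 and 0.01, with siGAR1 replicate 3 at 8344 normalized counts above the other 2 siGAR1 libraries (6411 and 6219).

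Polymerase and primase genes did not pass in any edgeR comparison. In siDyskerin the 6 had a median of 0.006, with 0 at an unadjusted p under 0.05 in edgeR and 0 called by DESeq2. In siGAR1 the median was -0.17, with 4 lower at an unadjusted p under 0.05 (12.2% of all genes were) and 0 called by either tool. Between the knockdowns 3 were higher in siDyskerin at an unadjusted p under 0.05, against 13.1% of all genes. DESeq2 called 1 higher there (POLA1), against 6.01%. POLA1, the catalytic subunit that starts each strand with the primase, had 4635, 5047 and 4776 normalized counts in siControl, 5091, 5111 and 5376 in siDyskerin and 4202, 4418 and 4565 in siGAR1. The siDyskerin libraries were above every other, and the difference between knockdowns was 0.24 (standard error 0.06, edgeR adjusted p = 0.026). POLE, the leading-strand polymerase, was at -0.01 in siDyskerin and -0.21 in siGAR1, the lowest of the group there (adjusted p = 0.12). It had normalized counts of 11923, 10341 and 11100 in siControl, 12391, 10070 and 10774 in siDyskerin and 9843, 9762 and 9178 in siGAR1. The siGAR1 libraries were the lowest, and siDyskerin spread on both sides of the controls. POLA2, the subunit that accompanies POLA1, was the lowest in siDyskerin at -0.14, and the primase PRIM1 was the highest in both, at 0.15 and 0.05. POLA2 had normalized counts of 3248, 2802 and 2648 in siControl, 2837, 2379 and 2673 in siDyskerin and 2393, 2528 and 2661 in siGAR1, and PRIM1 of 4160, 4423 and 4273 in siControl, 4302, 4988 and 4939 in siDyskerin and 4608, 4351 and 4322 in siGAR1. Both knockdown groups overlapped with control for either gene.

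The clamp, its loader and the Okazaki fragment enzymes did not pass by edgeR either. At an unadjusted p under 0.05, 3 of the 7 were lower in each knockdown, against 13.1% of all genes in siDyskerin and 12.2% in siGAR1. DESeq2 called RFC3 and LIG1 lower in siDyskerin (6.59% of genes with a DESeq2 adjusted p were) and FEN1 lower in siGAR1 (5.35%). PCNA and RFC5 were called higher in siDyskerin than in siGAR1 by DESeq2 (6.01% of genes with its adjusted p were). PCNA, the sliding clamp, had 11165, 11301 and 10916 normalized counts in siControl, 11474, 12002 and 12541 in siDyskerin and 10238, 10624 and 10546 in siGAR1. The 3 groups did not overlap, with small distances: 0.11 in siDyskerin (edgeR adjusted p = 0.25), -0.09 in siGAR1 (adjusted p = 0.38) and 0.20 between the knockdowns (adjusted p = 0.039). The clamp loader subunits went different ways. RFC3 had normalized counts of 2520, 2714 and 2734 in siControl, 2029, 2286 and 2145 in siDyskerin and 2560, 2493 and 2557 in siGAR1. The siDyskerin libraries were the lowest, and their difference from control of -0.30 on the log2 scale (standard error 0.07, edgeR adjusted p = 0.011) missed the threshold. RFC5 was at 0.12 in siDyskerin and -0.15 in siGAR1, and at 0.27 between them (adjusted p = 0.016). Its normalized counts were 4647, 5037 and 4478 in siControl, 4976, 5229 and 5192 in siDyskerin and 4303, 4316 and 4181 in siGAR1, with siGAR1 below all other libraries. RFC2 and RFC4 lay between -0.07 and 0.10. RFC4, the highest of the group in siGAR1, had normalized counts of 5036, 5253 and 4944 in siControl, 4781, 5538 and 5188 in siDyskerin and 5446, 5306 and 5582 in siGAR1. The flap nuclease FEN1 had normalized counts of 6519, 6180 and 6177 in siControl, 5639, 5534 and 5298 in siDyskerin and 5356, 5567 and 5212 in siGAR1, every knockdown library below every control. It was at -0.20 and -0.23 (edgeR adjusted p = 0.049 and 0.035), and the ligase LIG1 at -0.26 and -0.22 (adjusted p = 0.035 and 0.089).

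**Figure D3:**
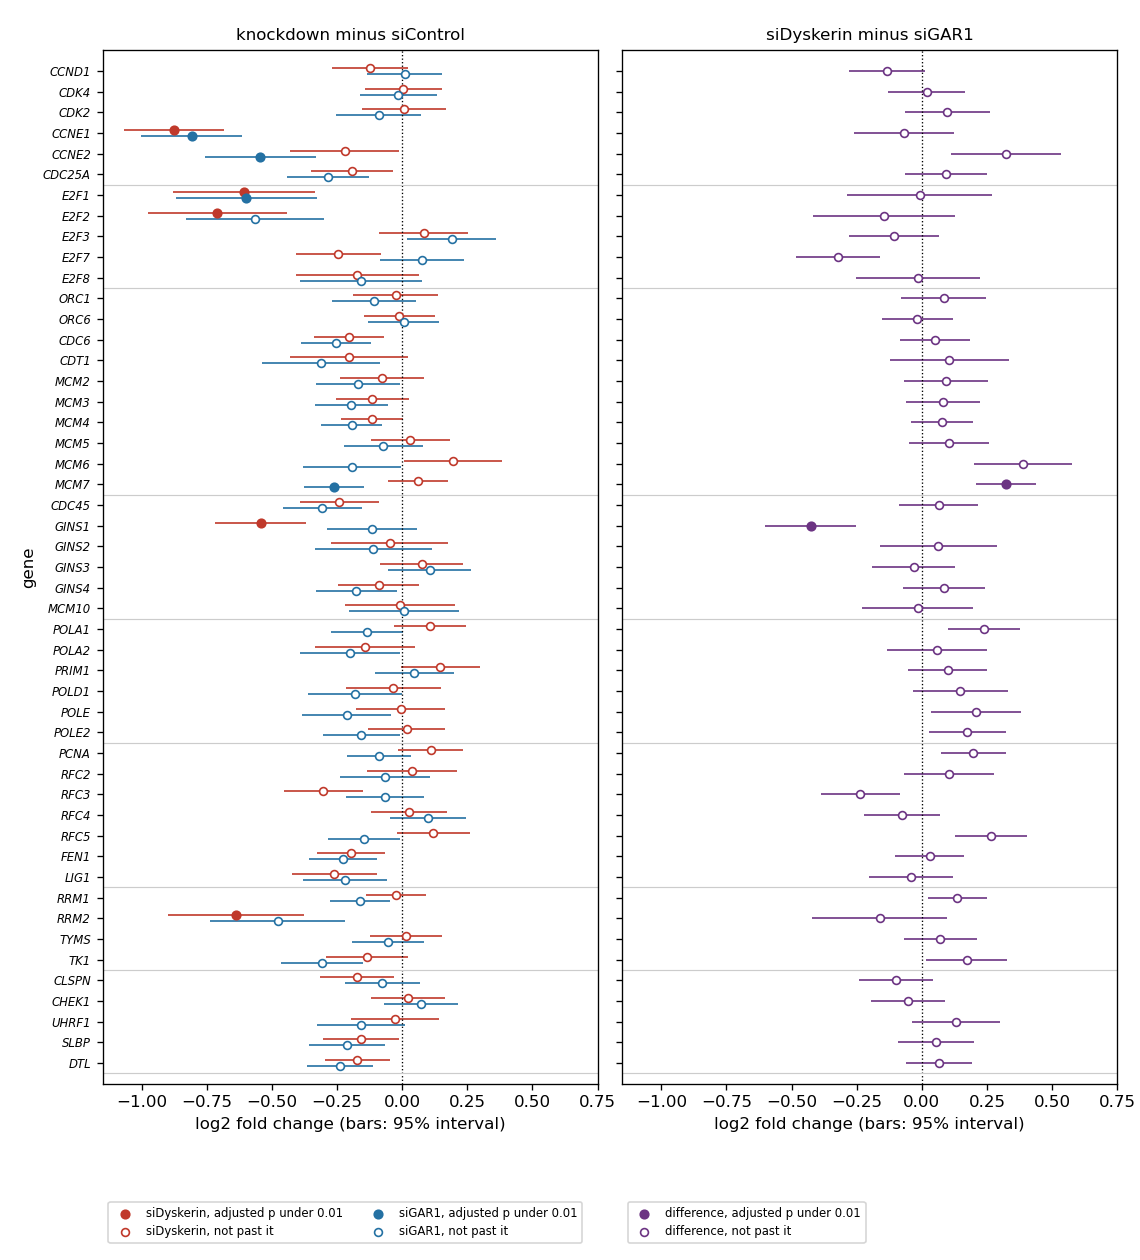
Log2 fold changes (x axis) with 95% intervals for the 49 members, grouped by role from cyclins at the top to S phase factors at the bottom; at left each knockdown minus siControl, at right siDyskerin minus siGAR1. Filled points passed an adjusted p under 0.01: 5 in siDyskerin, 4 in siGAR1, and MCM7 and GINS1 between the knockdowns.

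In nucleotide supply, the small subunit of ribonucleotide reductase stood out. RRM2 (ENSG00000171848.16; GRCh38 chromosome 2, 10120698 to 10211725), whose level is known to limit the enzyme in the cell cycle, had 36952, 33665 and 34789 normalized counts in siControl, 21854, 23213 and 22673 in siDyskerin and 21286, 22163 and 32305 in siGAR1. A pair of siGAR1 libraries lay with siDyskerin, and replicate 3 lay near the controls. The log2 fold change was -0.64 in siDyskerin (standard error 0.12, edgeR adjusted p = 0.0032) and -0.48 in siGAR1 (standard error 0.12, adjusted p = 0.026). Without siGAR1 replicate 3, RRM2 and E2F2 passed in siGAR1 and MCM7 did not, and 5 members were lower in place of 4. The call in siDyskerin was kept in 11 of 17 alternative settings and was lost with counts rebuilt from length-scaled TPM (edgeR adjusted p = 0.014) and without siControl replicate 1 or 3 or any of the 3 siDyskerin replicates. The large subunit RRM1 was at -0.02 and -0.16, and TYMS, which makes thymidylate, at 0.02 and -0.06. TYMS had normalized counts of 24323, 23301 and 22904 in siControl, 23292, 23975 and 24032 in siDyskerin and 20821, 22402 and 24641 in siGAR1, with overlap of all groups. TK1, the thymidine salvage kinase, had 10737, 9365 and 9843 normalized counts in siControl, 9344, 9001 and 8928 in siDyskerin and 7415, 8736 and 8061 in siGAR1. It was at -0.13 and -0.31, the latter with an edgeR adjusted p of 0.019.

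The checkpoint, chromatin and ubiquitin factors were within 0.24 of control. DTL, the substrate receptor that sends CDT1 for destruction, had 8143, 8695 and 8802 normalized counts in siControl, 7566, 7482 and 7715 in siDyskerin and 7393, 7191 and 7154 in siGAR1. All knockdown libraries were below all controls, at -0.17 (edgeR adjusted p = 0.071) and -0.24 (adjusted p = 0.022). SLBP, which binds the stem-loop of histone mRNAs, was at -0.16 and -0.21, and CLSPN, the adaptor for CHEK1, at -0.17 and -0.08. CLSPN had normalized counts of 9476, 10865 and 10883 in siControl, 9025, 9230 and 9399 in siDyskerin and 9781, 9611 and 10237 in siGAR1, so its siDyskerin libraries were below all others. The kinase CHEK1, with normalized counts of 7404, 7904 and 8287 in siControl, 7447, 8322 and 8175 in siDyskerin and 8279, 8133 and 8412 in siGAR1, overlapped between groups. It was the highest of the group, at 0.02 and 0.07, and the methylation reader UHRF1 was at -0.03 and -0.16. None of the 5 passed by edgeR. At an unadjusted p under 0.05, 3 were lower in siDyskerin and 2 in siGAR1, against 13.1% and 12.2% of all genes. DESeq2 called 0 and 1 (DTL) lower, against 6.59% and 5.35%.

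Members were also split by the E2F cores of the promoter window. In siDyskerin the median log2 fold change was -0.06 for the 32 with a core and -0.02 for the 10 without. Of these, 4 and 1 passed lower, where 3.32% of all genes did. In siGAR1 the medians were -0.16 and -0.13, and 2 and 1 passed lower, where 1.79% of all genes did. The member with the largest drop in either knockdown, CCNE1, had none of the 3 cores in the printed window.

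The median of 43 other genes of the replication machinery was -0.07 in siDyskerin. By edgeR, 3 of them were lower (6.98%, against 3.32% of all genes) and 0 higher (against 3.08%). These were RPA1, the large subunit of the single-strand binding protein (-0.59, adjusted p = 3.4e-05), GMNN, the inhibitor of CDT1 (-0.50, adjusted p = 0.00074), and DCTPP1, a nucleotide pool enzyme (-0.35, adjusted p = 0.0058). RPA1 had 6502, 6322 and 5988 normalized counts in siControl, 4089, 4355 and 4012 in siDyskerin and 5773, 5895 and 5867 in siGAR1, so the siDyskerin libraries were far below those of both other groups. In siGAR1 2 were lower (4.65%, against 1.79% of all genes) and 0 higher (against 1.63%), with a median of -0.07. DSCC1, a subunit of an alternative clamp loader, was among them (-0.41, edgeR adjusted p = 0.0042). Between the knockdowns 2 were lower in siDyskerin (4.65%, against 2.78% of all genes) and 1 higher (2.33%, against 2.61%). The lower ones were RPA1 (-0.49) and GMNN (-0.57), with edgeR adjusted p of 0.00021 and 0.00039. At an unadjusted p under 0.05, 12 were higher and 4 lower in siDyskerin than in siGAR1, against 13.1% and 12.4% of all genes. Against siControl at that unadjusted p, 4 were higher and 11 lower in siDyskerin and 1 and 12 in siGAR1. Of all genes, 13% were higher and 13.1% lower in siDyskerin, and 11.8% and 12.2% in siGAR1. DESeq2 called 7 lower and 0 higher in each. Of the genes it gave an adjusted p, 6.59% and 6.18% were so called in siDyskerin and 5.35% and 4.34% in siGAR1.

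Of 32 regulators of the RB-E2F pathway, 31 could be tested and CDKN2A was under the count filter. In siDyskerin 3 were lower and 0 higher (6 and 6 at an unadjusted p under 0.05): E2F5, a repressor-type E2F (-0.77, edgeR adjusted p = 0.00031), MYBL2, the B-MYB factor of S and G2 genes (-0.54, adjusted p = 0.00052), and CCNF, the F-box cyclin (-0.50, adjusted p = 0.0089). In siGAR1 2 were lower and 0 higher (10 and 2 at an unadjusted p under 0.05): E2F5 again (-0.60, adjusted p = 0.0035) and CDK6, a partner of cyclin D (-0.38, adjusted p = 0.0049). E2F5 had 602, 578 and 556 normalized counts in siControl, 324, 381 and 311 in siDyskerin and 406, 350 and 387 in siGAR1, with all knockdown libraries below all controls. The medians of the 31 were -0.04 and -0.11. Lower by edgeR were 9.68% in siDyskerin, against 3.32% of all genes, and 6.45% in siGAR1, against 1.79%. At an unadjusted p under 0.05, 13.1% of all genes were lower and 13% higher in siDyskerin, and 12.2% and 11.8% in siGAR1. DESeq2 called 4 lower and 0 higher in siDyskerin, against 6.59% and 6.18% of the genes it gave an adjusted p. In siGAR1 it called 5 lower and 1 higher, against 5.35% and 4.34%. RB1, the retinoblastoma gene itself, was at 0.24 and 0.09 and did not pass.

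Lists of neighbouring programs were counted in the same way. Of all genes, edgeR passed 3.32% lower and 3.08% higher in siDyskerin, and 1.79% and 1.63% in siGAR1. At an unadjusted p under 0.05 the shares were 13.1% and 13% in siDyskerin, and 12.2% and 11.8% in siGAR1. By DESeq2, over the genes it gave an adjusted p, they were 6.59% and 6.18% in siDyskerin, and 5.35% and 4.34% in siGAR1. Of 28 G2/M genes, 3 were lower (10.7%) and 0 higher in siDyskerin, with a median of -0.13. At an unadjusted p under 0.05, 12 were lower and 1 higher. In siGAR1 0 passed by edgeR (median 0.05, 6 higher and 4 lower at an unadjusted p under 0.05). DESeq2 called 4 lower and 0 higher in siDyskerin, and 0 lower and 2 higher in siGAR1. AURKB, a mitotic kinase, fell by 0.93 on the log2 scale in siDyskerin (edgeR adjusted p = 6.1e-06) and was at -0.02 in siGAR1. Of 23 p53 targets tested, 4 were higher (17.4%) and 1 lower (4.35%) in siDyskerin. At an unadjusted p under 0.05, 8 were higher and 2 lower, and by DESeq2 6 and 1. In siGAR1 4 were higher (17.4%) and 0 lower, with 11 and 1 at the unadjusted p and 6 and 0 by DESeq2. SESN1, a stress-induced sestrin, rose in both (0.51 and 0.64, edgeR adjusted p = 0.0021 and 0.00081), MDM2, the ubiquitin ligase for p53, rose in siGAR1 (0.41, adjusted p = 0.0036), and CDKN1A, the CDK inhibitor p21, was at 0.01 and -0.16. The lower one in siDyskerin was SESN2, another sestrin (-0.49, edgeR adjusted p = 0.0011). Of 68 clustered histone genes, 40 could be tested, and 8 were lower in siDyskerin and 12 in siGAR1, with 0 higher in either and medians of -0.24 in both. At an unadjusted p under 0.05, 0 histone genes were higher in either and 21 and 26 were lower, and DESeq2 called 9 and 17 lower and 0 higher.

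**Figure D4:**
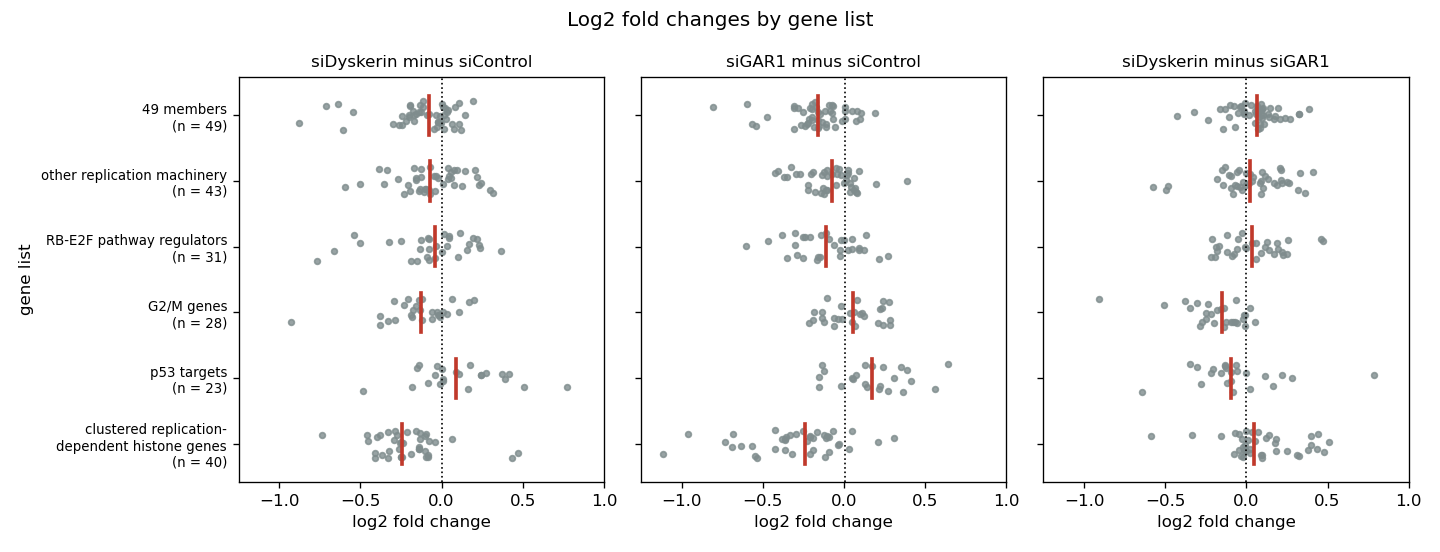
Log2 fold changes (x axis) of single genes (grey points) in 6 gene lists, with the list median as a red bar and the median of all 18444 genes as a dotted line, for the 3 comparisons. The 49 members lie just below the line in siDyskerin and siGAR1 (medians -0.08 and -0.16), and the histone genes further below (-0.24 in both). The p53 targets lie above it in both (0.09 and 0.17). The G2/M genes lie below it in siDyskerin (-0.13) and above it in siGAR1 (0.05).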

How the data were processed

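Per the paper's methods, nuclear RNA libraries (RiboCop depletion, CORALL Total RNA-Seq, paired ends) were checked with FastQC 0.11.9, trimmed with Trim Galore 0.6.4, filtered against rRNA and tRNA with Bowtie2 2.4.1 and quantified with Salmon 1.2.0 (library type ISR, so by strand) on GENCODE 27 and GRCh38. The authors deposited, for each library, the estimated count of reads and the TPM of every transcript. In 11 pairs of nested transcripts of these genes the longer never had fewer reads than the shorter, in each library. A read may have been counted in more than 1 transcript, and a gene's sum may then exceed its reads. The pairs cannot decide this, because a longer transcript can also hold more reads of its own. Such repeated counting was not measured directly.

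Estimated counts of 195887 of 200401 transcripts were summed to 58425 genes through GENCODE 44 and rounded. The unmatched transcripts held 3.69 to 3.84% of the reads and were left out. Genes kept by filterByExpr (18444) were tested with edgeR 4.0.16 in R 4.3.3: TMM factors (0.982 to 1.02), robust quasi-likelihood fit of all 9 libraries with group as the only term, 3 contrasts, Benjamini-Hochberg adjustment, threshold 0.01. The common biological coefficient of variation was 0.0886. DESeq2 1.42.0, relative log expression factors, no filter, lengthScaledTPM counts, 1 transcript per gene, protein_coding transcripts, the 6 libraries of the groups compared, a replicate block and each library left out were alternatives. Python 3.11.15, pandas 2.3.3 and matplotlib 3.10.9 made the tables and plots.

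The members and the gene lists were chosen with earlier results of these data known. Any member could be named; values of every library are given for members that passed in a comparison and for the highest and lowest of each role in each knockdown against siControl, and up to 4 genes with the smallest p were eligible from each other list. E2F7, CDC6, PCNA, POLA1, TK1 and other members outside this rule are given in full, and RB1 and CDKN1A are named, as choices made after their values were seen. A gene that this rule picks is not reported here.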

Additional observations from a re-analysis of the deposited data

How the results depend on the processing

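For members lower in siDyskerin (5 as reported), DESeq2 gave 8 and leaving out 1 library gave 2 to 7. For members lower in siGAR1 (4), DESeq2 gave 13, no low-count filter 9, lengthScaledTPM counts 1, 1 transcript per gene 9, protein_coding transcripts only 7 and the 6 libraries of these groups 2, and leaving out 1 library gave 1 to 5. For members higher in siDyskerin than in siGAR1 (1), DESeq2 gave 5, and relative log expression factors, no filter, 1 transcript per gene and protein_coding transcripts each gave 2; the range without 1 library was 0 to 2. For members lower there (1), DESeq2, no filter, 1 transcript per gene and protein_coding transcripts each gave 2, lengthScaledTPM counts gave 0, and the range was 0 to 1. The count of members higher in either knockdown against siControl was 0 under all 17 alternatives. The cause of these changes was not tested, except that fits without a library or with 6 libraries hold fewer samples.

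Of 3315 values of single genes under the alternatives, 3099 stayed on their side of the threshold, 125 lost it, 91 gained it and 0 called values changed sign. Of the 3099, 94 changed sign while past the threshold in neither fit. Most of the 3315 values were of genes that had not passed, so these totals say little of how steady the calls were. Member calls were kept in between 6 (MCM7 in siGAR1) and 17 of the 17 alternatives, with E2F1 in siGAR1 kept in 7. Correlations of deviations between same-numbered libraries were -0.07 to 0.10, and only 1 was over 0.1. Between differently numbered libraries they were -0.10 to 0.06. Replicate 3 had the fewest summed reads in every group, and the labels do not say whether the numbers mark a shared batch. With the replicate number as a block, 7 members were lower in siDyskerin, 4 in siGAR1 (CDC45 gained, E2F1 lost), and 1 was higher and 1 lower between the knockdowns.

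With 3 replicates of 1 cell line, p-values set each group difference against the spread between replicate libraries. They do not extend to other lines. A nuclear fraction holds nascent and processed RNA together, and protein was not measured here.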
